A study of Drosophila melanogaster with 15 samples.

Results

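Oxidative phosphorylation (OXPHOS) subunit genes were measured in embryos of Drosophila melanogaster w[1118], a white-eyed laboratory stock, after a low dose of gamma rays. A gene was a member when a probe set with a single gene symbol named it and the symbol began with ND-, UQCR-, COX or ATPsyn, or with Sdh and a capital letter, and its probe set with the highest mean level stood for the gene. This gave 72 of the 11982 genes with such a probe set, 32 of complex I, 6 of complex II, 6 of complex III, 14 of complex IV and 14 of complex V. Pools of whole embryos, 3-4 hours old, were frozen 5, 30, 60 or 90 min after a dose of 500 µGy gamma rays (22.4 mGy/h), or were not irradiated. Every group had biological replicates A, B and C, each hybridized to its own Affymetrix array, which gave 12 irradiated arrays and 3 control arrays. All groups were frozen at the same age, and time after irradiation and age at irradiation therefore cannot be told apart.

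The OXPHOS complexes lie in the inner membrane of the mitochondrion. Complex I (NADH dehydrogenase) and complex II (succinate dehydrogenase) pass electrons to ubiquinone, complex III passes them on to cytochrome c and complex IV to oxygen, and complex V (ATP synthase) makes ATP from the proton gradient that complexes I, III and IV build up. Most subunits are encoded in the nucleus, and the young fly embryo starts with mitochondria and transcripts laid down by the mother. Several nuclear subunit genes of the fly have a second copy used mainly in the testis, and symbols that end in L, for "like", mark many such copies. RefSeq names 90 genes by the same rule. The other 18 were not analysed here, among them SdhA, the flavoprotein of complex II, UQCR-C1 and UQCR-C2, the core proteins of complex III, and the mitochondrially encoded COX1, COX2 and COX3.

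The copies without L were among the brighter probe sets of the embryo, and the copies with L were near the background. Of the 51 genes without L, 49 lay above the array's own median on all 15 arrays, with intensities between 136 and 29288, where the array medians lay between 29.0 and 43.3. Of these 49 genes, 25 lay above the 95th percentile of every array. All 10 genes of complex V without L belonged to these 25, including the catalytic subunit ATPsynbeta (7470 to 13128), the stalk subunits ATPsyndelta (8826 to 23769) and ATPsynO (10039 to 25230), and ATPsynC of the membrane rotor (7582 to 14186). So did 6 of the 7 genes of complex IV, with COX5A between 8248 and 26714 and COX7B between 9876 and 18080, and 8 of the 26 genes of complex I, with ND-MLRQ, a small subunit found with complex IV in mammals, between 15844 and 29288. In complex II the 3 genes measured without L, the iron-sulfur subunit SdhB and the membrane anchors SdhC and SdhD, stayed between percentiles 88.1 and 95.4 of the arrays. The exceptions were ND-B8, below the median on all 15 arrays (0.932 to 20.3), and UQCR-11, a small subunit of complex III, above it on 12 of 15 (9.63 to 81.0).

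**Figure D1:**
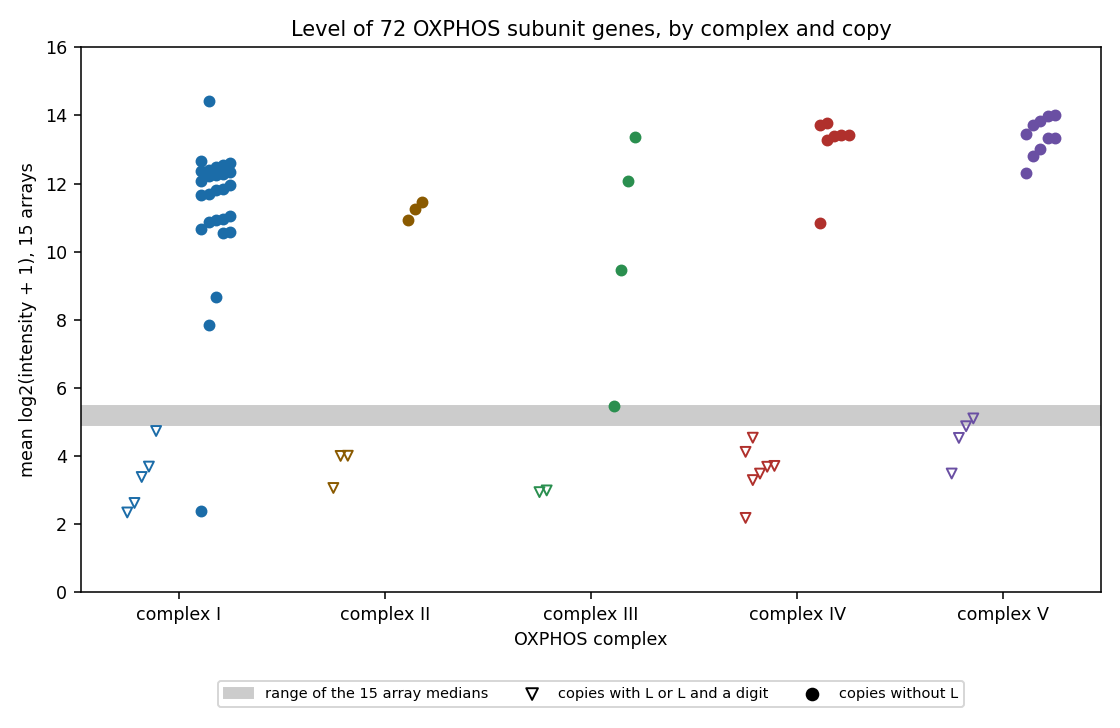
Mean log2(intensity + 1) over 15 arrays of each of the 72 genes, by complex, with copies ending in L or in L and a digit as open triangles on the left and copies without L as filled circles on the right; the grey band spans the 15 array medians. All 21 open triangles lie at 5.10 or below, and the copies without L lie at 7.84 or above except ND-B8 and UQCR-11.

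Of the 72 symbols, 18 ended in L. ND-MNLL is named for the first residues of its protein and was counted with the genes without L, which left 17 copies with L and 4 with L and a digit. None of these 21 copies lay above the array median on all 15 arrays, and their intensities ran from 0.686 to 102 for the copies with L and from 1.55 to 60.1 for those with L and a digit. The filter on dim probe sets, whose mean log2 level had to reach the 40th percentile, kept 6 of the 17 copies with L (ND-B14.5AL, COX4L, COX6AL, ATPsynbetaL, ATPsynepsilonL and ATPsynGL), 0 of the 4 with L and a digit, and 50 of the 51 genes without L. COX4L lay above the array median on 8 of 15 arrays, ATPsynbetaL, ATPsynepsilonL and ATPsynGL on 7 each, COX6AL on 6 and ND-B14.5AL on 5. UQCR-14L lay above it on 1 array and COX5BL on 0, against 15 of 15 for UQCR-14 and for COX5B, the copies without L. Pairs were matched by symbol, so that counterparts under other symbols were not paired. Over the 14 pairs so matched, the gene without L lay above the median on all 15 arrays in 13, and UQCR-11 was the exception. In the RefSeq annotation 1 protein-coding gene lies between COX5BL and COX5B and 2 lie between COX7AL and COX7A, so that close neighbours also differed in position relative to the array median.

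The testis markers were read beside these copies. Of 19 measured, 9 lay below the array median on all 15 arrays, among them the sperm tail genes dj and djl (13.8 and 13.2 at most) and the meiotic arrest genes can and sa (31.9 and 28.5 at most), and the testis tubulin betaTub85D lay above it on 4 arrays. Only twe and mia lay above it on all 15, and bol on 14. The 8 measured markers of the embryo at gastrulation, such as the mesoderm factors twi (843 to 3409) and sna (606 to 2873), all lay above the median on all 15 arrays.

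No OXPHOS gene changed with irradiation by the test across all probe sets. In limma with Benjamini-Hochberg adjustment, 0 of the 56 members tested passed an adjusted p of 0.05 at 5, 30, 60 or 90 min, in the mean of the 4 irradiated groups, in the slope over the times or in the test of any difference among the 5 groups, and the background was 0% of 11261 probe sets in each of these comparisons. At an unadjusted p under 0.05, 2 members passed for the 12 irradiated arrays together (3.57%, against 3.59% of all probe sets) and 0 at any single time, where 296, 165, 278 and 180 of all probe sets passed at 5, 30, 60 and 90 min. With the letter as a block, 2, 1, 10 and 9 members passed that unadjusted threshold at 5, 30, 60 and 90 min (3.57%, 1.79%, 17.9% and 16.1%, against 11.1%, 6.75%, 11.4% and 9.54% of all probe sets), and 8 in the irradiated mean (14.3%, against 14.4%). The SE of the irradiated mean minus control ran from 0.15 for COX4 to 0.94 for COX6AL, and smaller differences than these errors allow were not detectable with 3 control arrays. Where a value differs in such bulk samples, fewer cells of a type and less RNA per cell cannot be told apart.

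Of 56 members 39 were higher in the irradiated mean (69.6%), against 53.9% of all probe sets, and their median difference was 0.16 on the log2 scale against 0.04. At like levels the medians lay close to each other only above a mean log2 of 10. With a mean log2 above 12 the 30 members had a median of 0.23 and all 735 probe sets 0.21, and between 10 and 12 the 16 members had 0.03 and all probe sets 0.02. Between 8 and 10 the 2 members had 0.05 against -0.13, and under 8 the 8 members had 0.39 against 0.13. The median over all 56 members rested partly on the control arrays. It was 0.40 without control C, against -0.008 over all probe sets. Without control A it was 0.0349, below the 0.07 of all probe sets. Within letters, 7 members lay above their own letter's control on all 12 irradiated arrays (12.5%, against 4.24% of all probe sets), namely ND-B14.7, ND-B18, UQCR-14, COX5B, COX7B, COX7C and ATPsynB, and 0 lay below it on all 12 (against 1.89%). The deviations of 90 min A, B and C from their group mean correlated with those of the controls of their letters at 0.501, -0.299 and 0.311. The comparison of 90 min B with control B therefore lacks the support of such a pairing. Over the 9 arrays of 5, 30 and 60 min, 18 members lay above their letter's control on every array (32.1%, against 8.03%) and 0 below (against 4.88%). These counts were not matched for level, and they leave out 90 min A and C together with 90 min B. They keep 60 min B, whose hybridization spike-in controls stood at 11.54 on the log2 scale. Those controls stood at 11.52 in 90 min B, 10.72 in control B and 11.36 to 11.74 in the C arrays. The 7 members named above were all called higher in the C arrays than in the A arrays. The part of this signal in the counts of 7 and 18 was not tested. No member had every irradiated array above every control array, against 0.195% of probe sets, or every one below, against 0.00888%.

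**Figure D2:**
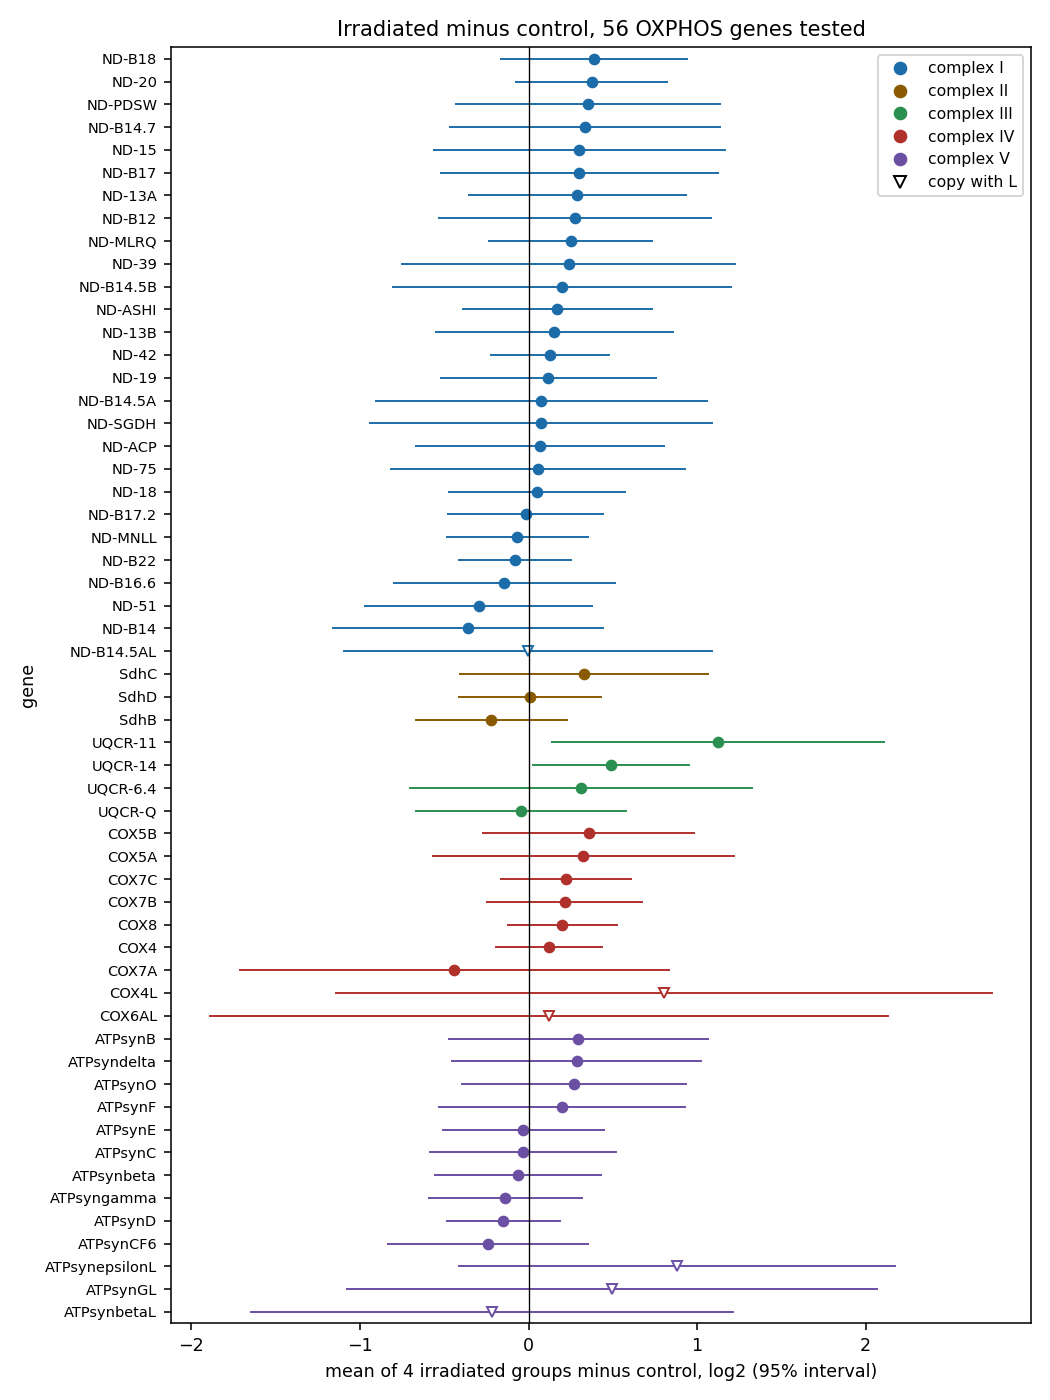
Mean of the 4 irradiated groups minus control in log2(intensity + 1) for the 56 members tested (12 irradiated and 3 control arrays), with limma's unadjusted 95% interval as a line; open triangles are copies with L. The intervals of UQCR-11 and UQCR-14 lie above 0, those of the other 54 genes include 0, and 39 of 56 points lie to the right of 0.

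Among the 56 members tested, complex III held both that had an unadjusted p under 0.05. Without the filter on dim probe sets 3 of 72 members passed that threshold, against 731 of 18769 probe sets. UQCR-14, a small subunit of complex III, had 7085, 8873 and 8192 in control arrays A, B and C and 9589, 11414 and 12628 in the 5 min arrays. The 30 min arrays A, B and C had 7842, 11647 and 12840, the 60 min arrays 8784, 12706 and 14033, and the 90 min arrays 8214, 14132 and 13771. Every irradiated array lay above the control of its letter, while the A arrays at 30, 60 and 90 min lay within or below the range of the controls B and C. The difference was 0.49 ± 0.22 on the log2 scale (SE, 12 irradiated and 3 control arrays; limma, adjusted p = 0.978), and the letter as a block gave an adjusted p of 0.0836. UQCR-11, the dim member, had 26.7 to 81.0, with a median of 51.6, in the 12 irradiated arrays, against 27.2, 42.3 and 9.63 in control arrays A, B and C. Its difference of 1.12 ± 0.46 (SE; limma, adjusted p = 0.978) was 0.55 without control C, the lowest of the 15 arrays. UQCR-Q, another small subunit, had -0.04 ± 0.29 and turned to 0.07 under quantile normalization. Of the 4 genes of complex III tested, 3 were higher, with a median of 0.40.

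In complex I, 20 of 26 genes without L were higher in the irradiated mean, with a median of 0.14 and a range from -0.36 to 0.39. ND-20, a redox subunit that carries an iron-sulfur cluster, ranged from 4021 to 7384 with a median of 5474 in the irradiated arrays, against 3868, 4814 and 3987 in control arrays A, B and C (0.37 ± 0.21; limma, adjusted p = 0.978). Its irradiated arrays overlapped the controls at the low end. ND-B18, an accessory subunit of the membrane arm, ranged from 2848 to 5246 with a median of 3641, against 2399, 2787 and 3881 in the controls (0.39 ± 0.26), and lay above its letter's control on 12 of 12 arrays. The lowest were ND-B14, an accessory subunit, with 667 to 2256 in irradiated arrays against 2071, 2307 and 1395 in control arrays A, B and C (-0.36 ± 0.37), and ND-51, the NADH-binding flavoprotein, with 1077 to 2273 against 1824, 1266 and 2946 (-0.30 ± 0.31). Without control C the ND-51 difference was 0.02. Both overlapped the controls.

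In complex IV, 6 of 7 genes without L were higher, with a median of 0.21. COX8 and COX7C, small subunits of the membrane part, had 0.20 ± 0.15 and 0.22 ± 0.18 (SE). COX7A was the one that was lower, at -0.44 ± 0.59, and had 714 to 3951 with a median of 2261 in the irradiated arrays, against 4004, 2837 and 1113 in control arrays A, B and C. Both ends of the irradiated range were B arrays, 714 at 90 min and 3951 at 30 min. In complex V, 4 of 10 genes without L were higher, with a median of -0.03. ATPsynO, a subunit of the stator stalk, had 0.27 ± 0.31, and ATPsynCF6 and ATPsynD, also of that stalk, had -0.24 ± 0.28 and -0.15 ± 0.16. In complex II, SdhC had 0.33 ± 0.34, SdhD 0.0061 ± 0.20 and SdhB -0.22 ± 0.21. Of the 6 copies with L tested 4 were higher, with a median of 0.31. Among these 4, COX4L and COX6AL had mean log2 levels of 3.89 and 4.02 in the control arrays. Their means were 4.69 and 4.14 in the irradiated arrays, and the filter required 4.04 over all arrays. They thus passed the filter only through the irradiated arrays. Both are counted among the 39 members higher in the irradiated mean, without being separate support. ATPsynepsilonL, the copy of a subunit of the central stalk, had 10.1 to 102 in irradiated arrays against 32.6, 24.8 and 9.75 in control arrays A, B and C (0.88 ± 0.60), and values of this size lie near the background.

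By time the median difference of the members was 0.24, 0.13, 0.20 and 0.25 at 5, 30, 60 and 90 min, against 0.07, 0.07, 0.06 and 0.05 over all probe sets. UQCR-14 was among the 3 higher members with the smallest p at each time, and the 4 comparisons share the control arrays. It had 0.47, 0.40, 0.53 and 0.54 at 5, 30, 60 and 90 min, UQCR-11 1.17, 1.10, 1.20 and 1.03, and ND-20 0.34, 0.19, 0.45 and 0.52. At 5 min the lowest p among members that were lower belonged to ND-B14.5AL (-0.97 ± 0.64), ND-51 (-0.38 ± 0.40) and ATPsyngamma of the central stalk (-0.21 ± 0.27), and ATPsynGL was higher by 1.27 ± 0.92. At 30 min they belonged to SdhB (-0.31 ± 0.26), ATPsynbetaL (-0.91 ± 0.84) and ATPsyngamma (-0.20 ± 0.27), with ATPsynepsilonL higher by 0.97 ± 0.76, and at 60 min to ND-51 (-0.51 ± 0.40), SdhB (-0.32 ± 0.26) and ND-B14 (-0.32 ± 0.47).

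At 90 min the smallest p among members that were lower belonged to ATPsynD (-0.39 ± 0.20), ATPsynCF6 (-0.67 ± 0.35) and ND-B14 (-0.84 ± 0.47). COX7A had the lowest estimate (-0.91 ± 0.75) and ATPsynepsilonL the highest (1.63 ± 0.76). ATPsynCF6 had 9928, 4108 and 4966 in the 90 min arrays A, B and C, against 9716, 10663 and 7942 in control arrays A, B and C. The value of 90 min B was the lowest of the 15 arrays, and 90 min A lay within the control range. Over the irradiated times the slopes with the smallest p were -0.25 ± 0.13 per 60 min for ATPsynD, -0.44 ± 0.23 for ATPsynCF6 and -0.50 ± 0.31 for ND-B14, and 0.64 ± 0.43 for ND-B14.5AL, 0.22 ± 0.16 for SdhD and 0.54 ± 0.51 for ATPsynepsilonL (SE; limma, adjusted p = 0.9997 for each). Of the 56 slopes 35 were above 0, with a median of 0.05, and 16 were above 0 with 60 min B and 90 min B left out, with a median of -0.07.

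**Figure D3:**
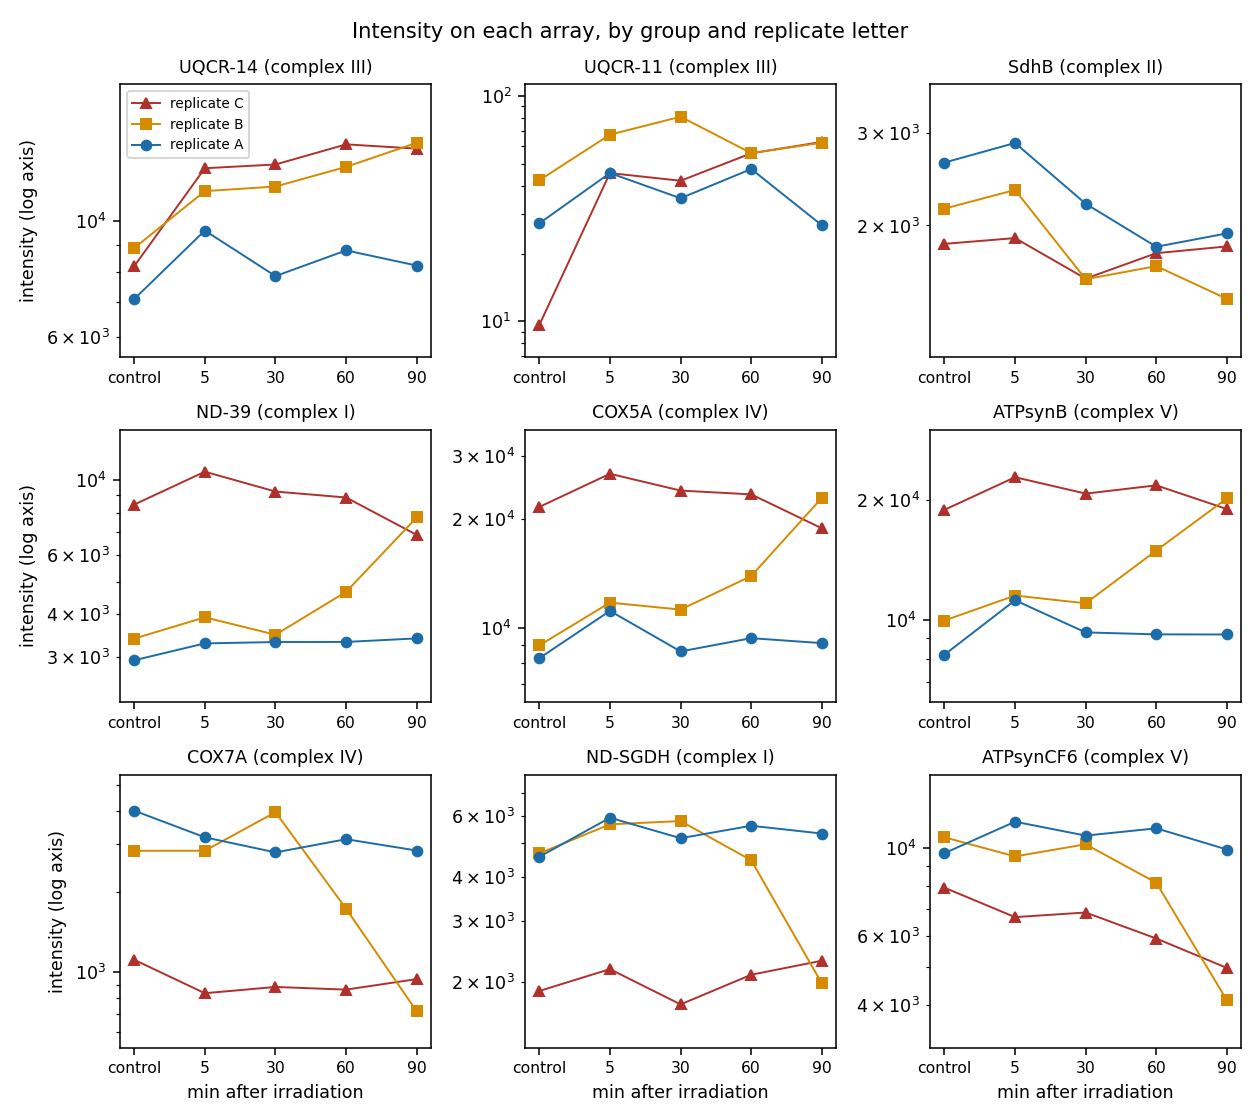
Intensity on each array (log axis) of 9 members, with groups along the x axis from control to 90 min after irradiation and the replicate letters C (red triangles), B (orange squares) and A (blue circles); lines join the arrays of a letter. UQCR-14 lies above the control of its letter in every irradiated array, while ND-39, COX5A and ATPsynB are high and COX7A, ND-SGDH and ATPsynCF6 low in the C arrays and in 90 min B.

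Other genes of the pathway, from lists named by function, gave 0 calls with irradiation as well. Among 8 further complex subunits and copies of them, whose symbols do not follow the rule, 5 were higher, with a median of 0.11; Cyt-c1, the heme subunit of complex III, had 0.48 ± 0.28, levy, a subunit of complex IV, 0.26 ± 0.29, blw, the ATP synthase alpha subunit, -0.43 ± 0.20, and sun, its epsilon subunit, -0.53 ± 0.36. Among 11 assembly factors 7 were higher (median 0.04), with Bcs1, whose yeast counterpart inserts the iron-sulfur protein of complex III, at 0.38 ± 0.46 and Surf1, a factor of complex IV, at -0.53 ± 0.54. Cox11 had 0.36 ± 0.67 and Coa7 -0.41 ± 0.41. Of 10 genes of mitochondrial genome upkeep and regulators 9 were lower (median -0.31), with the single-strand binding protein mtSSB at -0.49 ± 0.37, the RNA polymerase PolrMT at -0.54 ± 0.45 and TFAM, which packs mitochondrial DNA, at 0.05 ± 0.36. Of 10 inner membrane carriers and porins 7 were higher (median 0.20), with the ADP/ATP carrier sesB at 0.27 ± 0.17, Ucp4A at -0.52 ± 0.30 and Bmcp at -0.54 ± 0.49. Porin2, with intensities of 2.68 to 81.9 over the 15 arrays, had 2.04 ± 0.57 (limma, adjusted p = 0.978). Of 9 genes listed for the citric acid cycle 6 were lower (median -0.21). Idh, listed beside the Idh3 subunits, had -0.72 ± 0.33, ScsbetaA -0.64 ± 0.34, Ogdh 0.29 ± 0.22 and ScsbetaG 0.30 ± 0.35. Mitochondrial ribosomal proteins, encoded by nuclear genes like the members, were higher in 50 of 69 (median 0.14), and cytoplasmic ribosomal proteins in 34 of 36 (median 0.24).

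Markers of maternal RNA and of other cells were read over the same arrays. Of 13 maternal markers 12 were lower in the irradiated mean (median -1.19), with summed intensities of 11312 to 35955 in irradiated arrays against 21614 to 48661 in control arrays. All 5 pole cell markers were lower (median -0.81; 2553 to 10270 against 5719 to 11693). Of 6 hemocyte markers 5 were higher (median 0.60; summed intensity of 7 measured 946 to 4827 against 533 to 2546), of 8 markers of late embryo muscle, nerve and cuticle 7 were higher (median 0.28; 1377 to 9496 against 860 to 6427), of 8 gastrulation markers 5 were higher (median 0.12), and of 8 testis markers 3 were higher (median -0.38). None of these markers was called, and their part in the values of the OXPHOS genes was not tested.

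Calls among the OXPHOS genes came from the replicate letters. In a limma fit with group and letter, 40 of 56 members differed among the letters (71.4%), against 48.4% of all probe sets. The labels name the letters as biological replicates and do not say what arrays of a letter share. In C minus A, 42 members were called (75%, against 45.6%): 31 were higher in C (55.4%, against 20.8%) and 11 were lower (19.6%, against 24.8%). In raw intensity, 28 members had every C array above every A array (against 17.4% of probe sets), and 12 had every C array below (21.4%, against 21.4%). Fewer members separated the other letters. In B minus A, 15 were called (26.8%, against 14.7%), all of them higher (against 7.4% higher and 7.26% lower), and leaving out an array in turn gave 1 to 18, with 1 without 30 min A, 60 min A or 60 min B and 2 without 90 min A. In C minus B, 28 were called (50%, against 28.4%), 22 higher (against 12%) and 6 lower (against 16.4%), and leaving out an array in turn gave 5 to 26 higher and 2 to 12 lower, the fewest without 5 min B and the most without 90 min B.

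**Figure D4:**
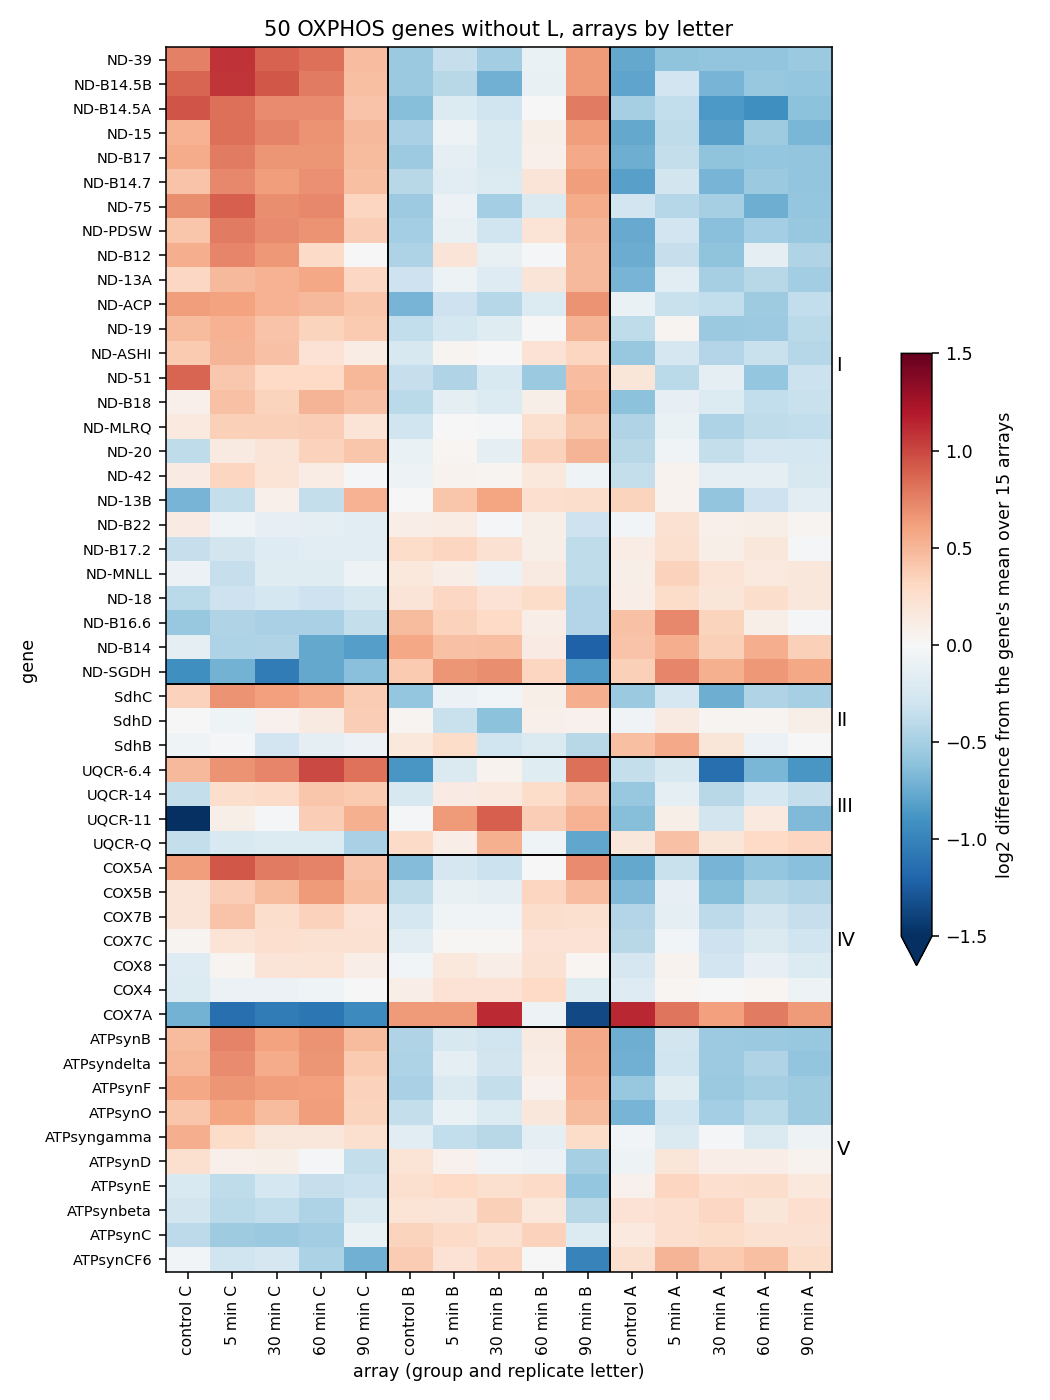
Difference of log2(intensity + 1) from each gene's mean over 15 arrays for the 50 members without L that were tested, in rows by complex (I to V, sorted by C minus A) and in columns by letter C, B and A with control to 90 min inside each letter; red is above and blue below the gene's mean, and values below -1.5 have the darkest blue. Most rows are red in the C arrays and in 90 min B and blue in the A arrays, and the 11 rows called lower in C tend the opposite way.

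All 5 complexes held genes that were higher in C than in A. In complex I, 18 of 26 genes without L were called higher and 5 lower. Over all probe sets the shares were 20.8% and 24.8%, which are not matched for level. ND-39, an accessory subunit of the matrix arm, had 6878 to 10585 with a median of 8878 in the C arrays, against 2926 to 3397 with a median of 3313 in the A arrays (1.43 ± 0.20; SE, 5 arrays each; limma, adjusted p = 0.000234). The lowest C array stood above the highest A array. ND-B14.5B (1.41 ± 0.21), ND-B14.5A (1.37 ± 0.23), ND-15 (1.29 ± 0.16), ND-B17 (1.20 ± 0.16) and ND-75, the large redox subunit that holds iron-sulfur clusters (1.17 ± 0.21), moved the same way. ND-PDSW and ND-B14.7 rose by 1.14 ± 0.16 and 1.17 ± 0.16.

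In complex III, UQCR-6.4 rose by 1.39 ± 0.25 and UQCR-14 by 0.55 ± 0.10 (limma, adjusted p = 0.000789 and 0.00102). In complex IV, COX5A had 18871 to 26714 in the C arrays against 8248 to 11150 in the A arrays (1.30 ± 0.19; limma, adjusted p = 0.000259), and COX5B rose by 0.88 ± 0.13. In complex V, ATPsynB had 18858 to 22759 in the C arrays against 8193 to 11209 in the A arrays (1.13 ± 0.15; limma, adjusted p = 0.000213), and ATPsyndelta (1.09 ± 0.14), ATPsynF (1.04 ± 0.16) and ATPsynO (0.97 ± 0.13) rose by similar amounts. In complex II, SdhC rose by 1.01 ± 0.17, while SdhB had -0.34 ± 0.14 and SdhD 0.05 ± 0.14, and neither passed. The only copy with L among the calls was COX4L (2.52 ± 0.57), with 41.7 to 63.5 in the C arrays against 3.34 to 28.7 in the A arrays, where the A values lie near the background. Its mean log2 level was 3.08 in A, 4.93 in B and 5.60 in C, and the filter required 4.04 over all arrays. COX4L thus passed the filter only through the B and C arrays, where it is high. It is counted among the 31 members called higher in C minus A and the 15 in B minus A, without being separate support.

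The 11 genes that were lower in C came from 4 of the complexes and included partners of the genes above in the same complexes. COX7A, a small subunit of complex IV, had 1113, 835, 881, 861 and 943 in the C arrays of the control and of 5, 30, 60 and 90 min, against 4004, 3185, 2798, 3133 and 2842 in the A arrays of the same groups (-1.78 ± 0.30; SE, 5 arrays each; limma, adjusted p = 0.000539). Every C array lay below every A array. ND-SGDH, an accessory subunit of complex I, had 1727 to 2305 in the C arrays against 4576 to 5926 in the A arrays (-1.39 ± 0.23; limma, adjusted p = 0.000464). ND-B14 fell by 0.98 ± 0.23 and ND-B16.6, the fly counterpart of mammalian GRIM-19, by 0.78 ± 0.17. In complex V the fall took in ATPsynCF6 of the stator stalk (-0.73 ± 0.17), ATPsynC of the rotor ring (-0.65 ± 0.13), the catalytic ATPsynbeta (-0.59 ± 0.13) and ATPsynE (-0.52 ± 0.14). ND-18 (-0.50 ± 0.15), UQCR-Q (-0.58 ± 0.21) and ND-MNLL (-0.37 ± 0.13) completed the 11. Within the ATP synthase, 5 of the 10 genes without L were called higher and 4 lower between the same arrays. All 10 had a mean log2 above 12, where 63.9% of all probe sets were called higher and 16.2% lower.

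The B arrays were not alike. Over the 41 genes without L called in C minus A, 90 min B lay closer to the mean of the C arrays than to that of the A arrays for 40 genes, 60 min B for 21, 5 min B and 30 min B for 7 each, and control B for 0. In 90 min B the 30 genes called higher in C had a median deviation of 0.51 from their means over 15 arrays and the 11 called lower had -0.58, against 0.40 to 0.63 and -0.48 to -0.35 in the 5 C arrays. COX7A was 714 in 90 min B and 1725 in 60 min B, against 2837 in control B. The genes were chosen on the A and C arrays, and these values are a description. The share over all probe sets called in C minus A is not given. In 90 min B the spike-in controls stood at 11.52 on the log2 scale, against 10.72 in control B. The actin control at its 3′ end stood at 10.22 against 12.12. The 99th percentile of intensity was 15493 against 11689. These are features of whole arrays, and their part in the counts was not tested.

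**Figure D5:**
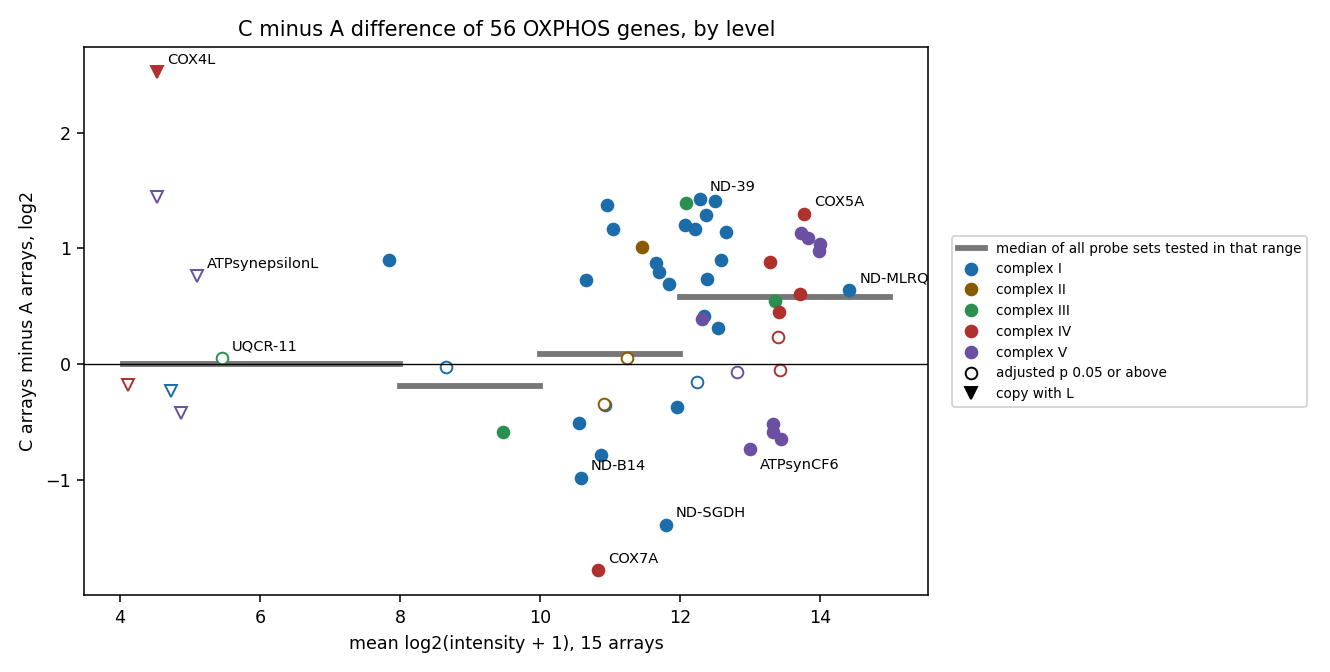
C arrays minus A arrays in log2(intensity + 1) for the 56 members tested, against their mean level, with filled symbols at an adjusted p under 0.05, triangles for copies with L, and grey bars for the median of all probe sets tested in 4 ranges of level. Members with a mean above 12 lie on both sides of 0, with 22 called higher and 4 called lower, and the grey bar there lies at 0.58.

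Level and signal differed between the letters too. Among all probe sets with a mean log2 above 12, 63.9% were called higher in C than in A and 16.2% lower, with a median of 0.58; the 30 members in that range had 22 calls higher, 4 lower and a median of 0.69. Among those between 10 and 12 the 16 members had 7 calls higher and 6 lower and a median of -0.15, against 36.7% called higher, 31.8% lower and a median of 0.09 over all probe sets. The 99th percentile of intensity was 14576 to 16373 in the C arrays against 9812 to 12148 in the A arrays, and the hybridization spike-in controls stood at 11.36 to 11.74 against 10.81 to 10.92 on the log2 scale. Quantile normalization left 25 members higher and 12 lower in C, which is 67.6% of the calls higher in place of 73.8%, while over all probe sets that share was 52.4% in place of 45.6%. It lowered the median of the members to 0.17. With the spike-in level of each array as a covariate, 0 of 56 members were called in C minus A, and 96 of 11261 probe sets. The spike-in level of every C array lay above that of every A array, so that this fit cannot tell spike-in level and letter apart. The level of the actin control at its 3′ end was 10.34 to 10.91 in C against 11.76 to 12.09 in A, and its 3′ minus 5′ difference was -0.17 to 0.37 against 0.40 to 0.51. The part of these signals in the differences of the OXPHOS genes was not tested further.

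Markers of stage and cell type are given beside the share of all probe sets called in C minus A, 24.8% lower and 20.8% higher. All 8 gastrulation markers were lower in C than in A and 7 were called, with summed intensities of 2755 to 4709 in the C arrays against 7874 to 14668 in the A arrays. Of the 5 pole cell markers 4 were called lower in C and of the 8 markers of late embryo muscle, nerve and cuticle 4. Closer to those shares, of the 13 maternal markers 5 were called lower and 1 higher, of the 6 hemocyte markers 2 lower, and of the 8 testis markers 3 lower. Among the other lists, 42 of 69 mitochondrial ribosomal proteins were called higher and 8 lower (median 0.85), 28 of 36 cytoplasmic ribosomal proteins higher and 1 lower (0.63), and 7 of 11 assembly factors higher and 0 lower (0.94). Of the 9 genes listed for the citric acid cycle 3 were called higher and 5 lower (-0.62). Their part in the differences of the OXPHOS genes was not tested.

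Separate probe sets of a gene gave the same direction in C minus A where they passed the filter. The 3 probe sets of ND-ACP, the acyl carrier protein bound to complex I, had 0.87, 0.92 and 1.09, those of ND-B17 1.20 and 1.16, those of COX7B 0.61 and 0.62, those of ATPsyngamma 0.39 and 0.39, and those of ATPsynbeta -0.59 and -0.22, of which the last did not pass. In irradiated minus control the signs agreed within ND-ACP, ND-B17, COX7B and ATPsyngamma and differed for ATPsynbeta (-0.06 and 0.08). The steadiest genes belonged to complexes I and IV. Over 15 arrays the SD of log2(intensity + 1) was 0.14 for ND-B22, 0.15 for COX4 and 0.17 for COX8, against 0.93 for COX7A and a median of 0.43 over the 49 bright genes.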

How the data were processed

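Total RNA of pooled whole embryos was primed with oligo(dT), and biotin-labelled cRNA was hybridized to Affymetrix arrays, per the labels' protocols. The submitters' processing notes name MAS5, without a version, for the intensity values that the authors deposited on a linear scale. Every deposited column had a trimmed mean of 500.01 to 500.02 (2% cut from each tail), and this scaling was kept. Probe sets were named through the platform annotation (13647 of 18952 with 1 symbol, 402 with several, 4903 with none; 13544 looked up in the table of RefSeq Release 6, 0 changed). No coordinates or sequences are given.

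Intensities were transformed as log2(intensity + 1), which understates changes of dim probe sets. Tests covered the 11261 probe sets, other than 183 Affymetrix controls, whose mean log2 level reached the 40th percentile (4.04). In R 4.3.3, limma 3.58.1 (lmFit, then eBayes with its trend option) fitted 5 group means to 15 arrays; a second fit added the replicate letter. Tests were two-sided, adjusted by Benjamini-Hochberg over all probe sets, at a threshold of 0.05. The scripts were tested on simulated data. The number of arrays limited the precision.

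The members, gene lists and tests were chosen with earlier results of these data known. Genes were named by rule: every call up to 12 per direction and contrast, the 2 smallest p per direction and complex in the mean of the irradiated groups, the 3 smallest at each time and in the slope, the 2 smallest per complex among letters, and 2 of each list per direction. Some further members were named after their values were seen, as examples of level, spread or repeated probe sets. The deviation of an array from its group mean correlated with that of the control of its letter at 0.217 to 0.665 for 5, 30 and 60 min, so that letters were taken to pair these groups, and at 0.501, -0.299 and 0.311 for A, B and C at 90 min, where they were not. The values of 90 min A and C lie inside the range of the other times, and only that of 90 min B lies outside. No correlation between unlike letters is given as a baseline. The alternatives were the letter as a block, a pseudocount of 32, quantile normalization, no filter, all probe sets of a gene, the spike-in level as a covariate and leaving out each array.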

Additional observations from a re-analysis of the deposited data

Results flagged for a closer look

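SdhB, the iron-sulfur subunit of complex II, lay above the control of its letter in all 3 arrays at 5 min and below it in all 3 arrays at 30, 60 and 90 min. It had 2638, 2154 and 1844 in control arrays A, B and C and 2876, 2339 and 1892 in the 5 min arrays. The 30 min arrays had 2201, 1579 and 1583, the 60 min arrays 1821, 1672 and 1771, and the 90 min arrays 1932, 1448 and 1824. The mean differences from control were 0.0934 for 5 min and -0.31, -0.32 and -0.35 for the 30, 60 and 90 min groups on the log2 scale. The difference between 5 min and the later times was not tested, and the slope over the irradiated times was -0.27 ± 0.18 per 60 min (SE; limma, adjusted p = 0.9997). Of 56 members looked at in this way SdhB was the only one, and the share over all probe sets was not counted. The margins in the C arrays were small, with 1892 at 5 min and 1824 at 90 min against 1844 in control C. The flag also compares 90 min B with control B, whose deviations correlated at -0.299. SdhB was lowest in 90 min B (1448), and no array was set aside as outlying for this flag.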

How the results depend on the processing

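The count of 0 members called with irradiation was the same in all 7 comparisons under every alternative run, the replicate block included (0 members, smallest adjusted p 0.0836 for UQCR-14 in limma). At an unadjusted p under 0.05 the block gave 8 members in the irradiated mean (14.3%, against 14.4% of all probe sets). The block combined with quantile normalization, added after seeing the data, called 19 of 11261 probe sets there, 0 of them members. The median difference of the members ran from 0.0349 without control A to 0.40 without control C, where all probe sets had 0.07 and -0.008. It was 0.08 under quantile normalization and 0.04 with the spike-in level as a covariate, against 0.01 and 0.08 over all probe sets. With 60 min B and 90 min B left out, chosen after seeing the data, it was 0.11 against 0.05. Without control A and with the covariate the members thus lay below all probe sets. The median of complex IV was 0.04 and that of complex V -0.21 under quantile normalization. The calls among letters were 34 to 45 over arrays left out in turn, with 28 to 32 higher and 8 to 13 lower in C minus A. With the spike-in level as a covariate, chosen for the letters after seeing the data, these counts were 0, 0 and 0, and the cause was not tested. That level separates the A arrays from the C arrays, so the fit cannot tell spike-in level and letter apart.

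Directions of small differences turned. In irradiated minus control, UQCR-Q was 0.0736 under quantile normalization, alone or with the block, 0.13 with the spike-in covariate and 0.0239 with 60 min B and 90 min B left out. The same covariate gave 0.15 for UQCR-Q in C minus A, -0.0068 for SdhD, 0.0345 for COX7A and 0.16 for ND-B14 at 60 min. Over arrays left out in turn, UQCR-Q ran from -0.24 to 0.0818, SdhD from -0.0227 to 0.0615, ND-51 from -0.59 to 0.0228, ND-B14 at 60 min from -0.61 to 0.0508, and ATPsyngamma from -0.40 to 0.0046 at 5 min and from -0.34 to 0.0152 at 30 min. The number of arrays and the dim signal of the copies with L limit what could be detected.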
